A study of Mus musculus with 47 samples.

Results

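The genes of cholesterol and fatty acid synthesis were followed as a group of 32 in muscle progenitors of mouse embryos that lacked MyoD, alone or together with Notch signalling. The members were listed by their place in the pathways: the mevalonate steps, the steps from squalene to cholesterol, the regulators of the SREBP transcription factors, a sterol carrier, fatty acid synthesis, and fatty acid elongation and desaturation. Of the 32 genes 29 have a probe here, and 28 were measured, of 8658 genes measured in all. A gene was measured if its probe had a detection p under 0.01 on at least 4 of the 47 arrays. Acat2, Mvk and Fdft1 have no probe in the tables used and were not analysed here. Tm7sf2, a sterol reductase, was detected on at most 3 arrays and was left out. Idi1 was detected on 15 arrays and Fasn on 17, so that much of their signal lay near background.

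Cells were sorted from back muscle at the E17.5 stage as Vcam-1 positive and as negative for CD31, CD45 and Sca1. They came from wild-type embryos (10 arrays), from MyoD+/- embryos (4), from MyoD-/- embryos (18), and from embryos that combine MyoD-/- with a Notch defect. In the latter a Pax3cre/+ allele acted on floxed alleles, either DnMaml flox/flox (8 arrays, the DnMaml;MyoD mutant) or Rbpj flox/flox (7 arrays, the Rbpj;MyoD mutant). DnMaml is a truncated Mastermind that blocks the Notch transcription complex, and Rbpj is the DNA-binding protein of that complex. Pax3-driven Cre acts in many derivatives of the somites and the neural crest, so that the Notch defect need not have been limited to muscle progenitors. All groups shared a mixed background of C57BL/6, 129/Sv and 129/Ola, and the labels give no Cre to the wild-type, MyoD+/- and MyoD-/- embryos. The labels leave unsaid whether an array holds 1 embryo or a pool, so p-values measure the spread between these samples.

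Cells make cholesterol from acetyl-CoA through mevalonate, the isoprenoid farnesyl pyrophosphate, squalene and a series of sterols. The transcription factor SREBP-2, encoded by Srebf2, drives most of these enzymes, while SREBP-1, encoded by Srebf1, acts mainly on fatty acid synthesis and desaturation. Both are held in the endoplasmic reticulum by Insig proteins when sterols are plentiful, and are carried to the Golgi by Scap for cleavage when sterols are scarce. Muscle progenitors use the products as membrane lipid, and isoprenoids also anchor small GTPases.

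The stretch upstream of the transcription start is shown for some of the members whose level changed with genotype. SREBP proteins bind such stretches at sterol regulatory elements, often beside CCAAT boxes bound by the factor NF-Y. Each stretch shown holds a CCAAT box, but not every changed member has one. Elovl6, Fads2, Scap and Acaca, which were also called, had no CCAAT match in the windows counted below. Sequences are from RefSeq on GRCm38.p6, run 5' to 3' on the gene's strand and end at the base before an annotated start. Capitals mark matches to the sterol regulatory element TCACNCCAC or to the CCAAT box CCAAT, on either strand.
Hmgcs1, chr13:119690101-119690350, plus strand: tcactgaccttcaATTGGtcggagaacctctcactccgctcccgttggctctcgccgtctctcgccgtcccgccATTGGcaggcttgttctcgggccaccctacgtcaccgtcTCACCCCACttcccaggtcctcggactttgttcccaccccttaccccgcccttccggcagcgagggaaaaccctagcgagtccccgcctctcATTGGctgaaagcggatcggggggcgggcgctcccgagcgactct
Cyp51, chr5:4104698-4104947, minus strand: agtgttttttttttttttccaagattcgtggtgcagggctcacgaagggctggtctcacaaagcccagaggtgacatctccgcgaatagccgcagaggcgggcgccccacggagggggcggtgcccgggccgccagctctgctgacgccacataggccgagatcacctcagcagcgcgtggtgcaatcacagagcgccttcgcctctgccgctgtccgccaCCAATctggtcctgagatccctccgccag
Mvd, chr8:122443423-122443672, minus strand: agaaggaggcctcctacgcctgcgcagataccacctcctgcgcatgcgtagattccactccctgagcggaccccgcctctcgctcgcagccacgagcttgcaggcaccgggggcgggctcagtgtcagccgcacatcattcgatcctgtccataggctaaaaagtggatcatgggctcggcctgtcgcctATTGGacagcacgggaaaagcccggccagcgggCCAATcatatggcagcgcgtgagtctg
Idi1, chr13:8885356-8885605, plus strand: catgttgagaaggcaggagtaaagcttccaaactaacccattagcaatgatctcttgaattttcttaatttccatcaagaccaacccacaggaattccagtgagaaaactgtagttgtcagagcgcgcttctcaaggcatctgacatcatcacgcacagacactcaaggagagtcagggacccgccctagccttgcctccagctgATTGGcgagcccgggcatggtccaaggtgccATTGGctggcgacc
Nsdhl, chrX:72918271-72918520, plus strand: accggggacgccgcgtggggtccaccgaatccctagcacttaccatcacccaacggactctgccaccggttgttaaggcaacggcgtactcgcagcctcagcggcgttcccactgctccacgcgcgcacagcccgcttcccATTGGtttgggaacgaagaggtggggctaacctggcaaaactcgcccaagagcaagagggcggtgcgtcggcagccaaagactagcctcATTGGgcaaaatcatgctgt
Srebf2, chr15:82147019-82147268, plus strand: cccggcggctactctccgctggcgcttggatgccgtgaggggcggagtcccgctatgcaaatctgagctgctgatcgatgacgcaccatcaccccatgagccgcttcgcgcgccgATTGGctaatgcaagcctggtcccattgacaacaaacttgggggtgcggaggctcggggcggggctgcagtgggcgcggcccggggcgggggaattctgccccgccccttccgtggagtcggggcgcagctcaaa
Motifs were counted over windows from 250 bases before to 50 bases after each start, on both strands, in the 25 member genes that the table holds. The element TCACNCCAC matched in 1 member gene, Hmgcs1, at -137 from the start, against 1.44% of 27025 genes. The Hmgcs1 window also holds 4 CCAAT boxes, 3 of them in the stretch shown. CCAAT matched in 20 of the 25 member genes, against 41.1% of all genes, and these were Insig2, Hsd17b7, Acss2, Pmvk, Cyp51, Insig1, Mvk, Dhcr7, Mvd, Elovl5, Lss, Srebf1, Acly, Fasn, Idi1, Hmgcs1, Srebf2, Tm7sf2, Ebp and Nsdhl. The RBPJ core TGGGAA matched in 8 members (28.3% of all genes), namely Insig2, Mvk, Scap, Srebf1, Acaca, Hmgcs1, Fads2 and Nsdhl. In Hmgcs1 a match lies directly beside the sterol element, and Nsdhl has 3 matches. The E-box CAGCTG, a form bound by MyoD, matched in 3 members (18.3% of all genes), namely Insig2, Dhcr7 and Idi1. These are matches of letters only, and no binding was measured.

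Array median intensities ran from 64.1 to 250.1, and 8761 to 11819 probes were detected per array. The 7 chips on which the arrays lie were a term of the fit reported here. Wild-type, MyoD-/- and DnMaml;MyoD arrays share chips 1 and 2, chip 3 holds MyoD-/- and Rbpj;MyoD arrays, and chips 4 to 7 hold all 5 genotypes. Myod1 itself had log2 levels of 10.76 to 11.59 in wild type and 8.78 to 9.63 in MyoD-/-, a change of -1.99 ± 0.10 (adjusted p = 5.38e-19). The labels do not say which part of Myod1 was deleted, so this probe may lie outside it. Vcam1, Msc and Des, which mark muscle progenitors, were detected on 47 of 47 arrays, whereas Pax7 and Myf5 were detected on 2. Of the genes sorted against, Pecam1 (CD31) was detected on 9 arrays and Ptprc (CD45) on 0. In bulk RNA of sorted cells, fewer cells of a type and less RNA per cell cannot be told apart.

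MyoD-/- was first set against wild type, which addresses the loss of MyoD alone. Transcripts of cholesterol synthesis were lower without MyoD along most of the pathway. Of the 28 measured members 16 fell and 1 rose at a limma adjusted p under 0.05 over all genes, against 23.1% of all genes called, 12% lower and 11.2% higher. The sterol steps fell in 9 of 12 cases, and fatty acid members in 5 of 10. The median log2 change over the 28 members was -0.48, against -0.01 over all genes, and 26 of the 28 changes were below 0. Changes are given below as log2 differences adjusted for chip, with their standard error (SE), and levels as normalised log2 intensities.

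**Figure D1:**
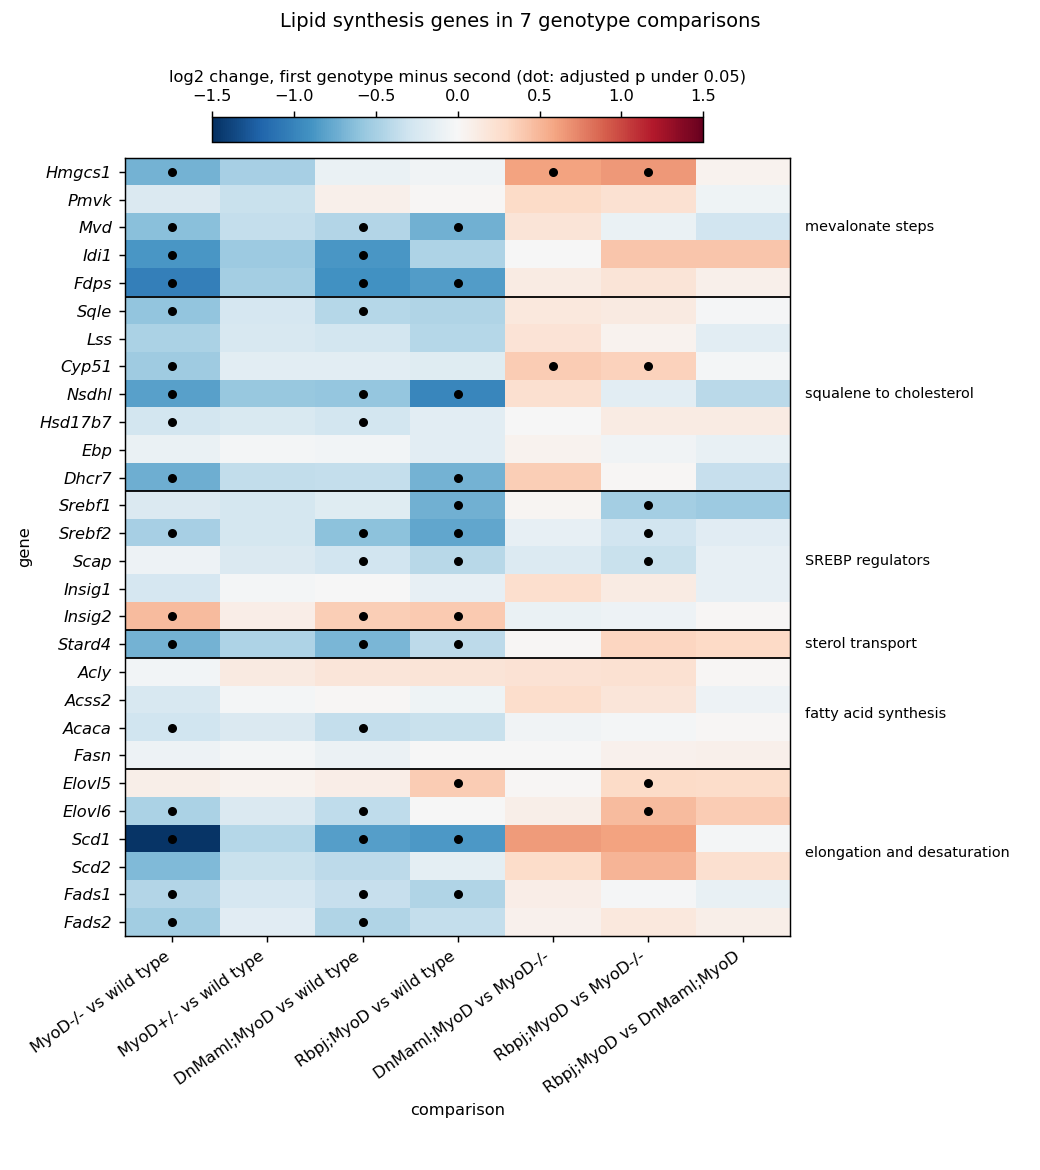
Heat map of the log2 change of the 28 measured genes (rows, grouped by role) in 7 comparisons (columns), where blue is lower and red is higher in the first genotype and a dot marks an adjusted p under 0.05. The column of MyoD-/- against wild type is blue with 16 dots, with Insig2 in red, and the column of MyoD+/- against wild type has 0 dots.

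Among the mevalonate steps the deepest fall was that of Fdps, farnesyl pyrophosphate synthase, which makes the isoprenoid from which sterols and prenyl groups are built. Its lowest, median and highest level was 12.78, 13.08 and 13.34 in the 10 wild-type arrays and 11.41, 11.98 and 12.76 in the 18 MyoD-/- arrays. The groups did not overlap, since the highest MyoD-/- array lay below the lowest wild-type array. Fdps changed by -1.03 ± 0.14 (SE, adjusted p = 2.45e-07), to 49.1% of the wild-type level. Its MyoD+/- arrays had 12.58, 12.61, 12.91 and 12.95, of which 2 lay below the wild-type range and 2 within it.

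Hmgcs1, cytosolic HMG-CoA synthase, which commits acetyl units to mevalonate and whose upstream stretch holds the sterol element, had 13.41, 14.30 and 14.64 in wild type. In MyoD-/- it had 12.72, 13.69 and 14.36, and 14 of its 18 arrays lay within the wild-type range, which wild-type replicate 1 extended downwards. Without that array, 2 MyoD-/- arrays reached the wild-type range. The change was -0.71 ± 0.12 (adjusted p = 1.94e-05), with differences of -0.93 to -0.33 within the 6 chips that hold both genotypes. MyoD+/- arrays were at 13.68, 13.91, 14.05 and 14.28, inside the wild-type range.

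Mvd, which decarboxylates mevalonate pyrophosphate, had 8.50, 8.80 and 9.29 in wild type and 7.76, 8.24 and 9.25 in MyoD-/-. Of the 18 MyoD-/- arrays 12 lay below every wild-type array, and the ranges overlapped. It changed by -0.63 ± 0.13 (adjusted p = 0.000343). Its MyoD+/- levels were 8.22, 8.40, 8.48 and 8.52.

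Idi1, the isomerase that supplies the starter unit for isoprenoids, was dim. It was detected on 6 of 10 wild-type and on 2 of 18 MyoD-/- arrays, with levels of 5.66, 6.64 and 7.62 and 5.21, 5.82 and 7.30. The ranges overlapped widely, and the highest MyoD-/- levels were on chip 3, where no wild-type array lies. The change was -0.87 ± 0.18 (adjusted p = 0.000262) and the difference within chips ran from -1.48 to 0.01. MyoD+/- arrays had 5.91, 6.03, 6.18 and 6.28. Pmvk, phosphomevalonate kinase, did not pass at -0.22 ± 0.11 (adjusted p = 0.16).

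Of the steps after squalene, Nsdhl, which removes a methyl group of the sterol ring and whose gene lies on the X chromosome, had 7.14, 7.83 and 8.45 in wild type. Its MyoD-/- arrays had 6.27, 7.10 and 7.97, and the MyoD+/- arrays 7.03, 7.26, 7.64 and 7.96. The ranges overlapped, with the 4 MyoD-/- arrays of chip 3 among the 5 highest of their genotype, and on every shared chip MyoD-/- was lower. Nsdhl changed by -0.82 ± 0.15 (adjusted p = 8.43e-05), and its 3 other detected probes changed by -0.91 ± 0.20, -0.78 ± 0.18 and -0.56 ± 0.12, all called over all probes.

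Sqle, squalene epoxidase, an early oxygen-requiring and rate-controlling step, had 12.14, 12.86 and 13.34 in wild type and 10.82, 12.24 and 12.73 in MyoD-/-. Its MyoD+/- arrays had 12.51, 12.58, 12.61 and 13.03, inside the wild-type range. Sqle changed by -0.59 ± 0.13 (adjusted p = 0.000781), while its dimmer second probe changed by -0.36 ± 0.18 and was not called. Cyp51, the lanosterol demethylase, had 10.80, 11.14 and 11.82 in wild type, 10.07, 10.81 and 11.34 in MyoD-/- and 10.89, 10.94, 10.96 and 11.52 in MyoD+/-. The ranges overlapped, but on each of the 6 shared chips MyoD-/- was lower, with differences of -0.66 to -0.41 and a fitted change of -0.54 ± 0.11 (adjusted p = 0.000223).

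Dhcr7, a late enzyme of the pathway that reduces dehydrocholesterol to cholesterol, changed by -0.73 ± 0.17 (adjusted p = 0.00133). It was detected on 9 of 10 wild-type and 11 of 18 MyoD-/- arrays. Hsd17b7, the sterol ketone reductase, changed by -0.27 ± 0.08 (adjusted p = 0.0171), a call that ended without chip 2 (-0.23, adjusted p = 0.114), without chip 7 (-0.22, adjusted p = 0.0816) or without wild-type replicate 10 (-0.23, adjusted p = 0.0501). Some arrays of chips 6 and 7 may share a sample, and averaging the arrays at the same position of both chips ended the call as well (-0.24, adjusted p = 0.0574). The other measured enzymes of this stretch did not pass: the cyclase Lss was at -0.48 ± 0.20 (adjusted p = 0.0809) and the isomerase Ebp at -0.10 ± 0.07 (adjusted p = 0.344).

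Among the regulators, Srebf2, the activator of the sterol enzymes, was lower in MyoD-/-. It had 10.86, 11.37 and 11.63 in wild type, 10.83, 10.94, 11.22 and 11.25 in MyoD+/- and 10.38, 10.83 and 11.15 in MyoD-/-. Of the 18 MyoD-/- arrays 10 lay below every wild-type array and the others in the lower part of its range. The change was -0.50 ± 0.09 (adjusted p = 3.69e-05), to 70.9% of wild type.

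Insig2, an inhibitor that retains SREBP in the endoplasmic reticulum, was the 1 member that rose. It had 8.997, 9.37 and 9.58 in wild type, 8.86, 9.16, 9.28 and 9.58 in MyoD+/- and 9.12, 9.95 and 11.06 in MyoD-/-, where the 4 highest arrays were those of chip 3 and 13 of 18 lay above every wild-type array. The change was 0.47 ± 0.10 (adjusted p = 0.00041), 1.39-fold, with differences of 0.18 to 0.60 within chips. A second probe of Insig2 changed by 1.11 ± 0.31, a call over all probes as well. The paralog Insig1 (-0.25 ± 0.14, adjusted p = 0.225), the escort Scap (-0.08 ± 0.09, adjusted p = 0.549) and Srebf1 (-0.22 ± 0.13, adjusted p = 0.239) did not pass in this comparison.

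Stard4, a carrier that moves cholesterol between membranes and is itself known as a sterol-responsive gene, followed the enzymes. Its levels were 9.72, 10.20 and 10.75 in wild type, 10.10, 10.14, 10.17 and 10.48 in MyoD+/- and 8.38, 9.53 and 10.17 in MyoD-/-. The ranges overlapped, with 11 of 18 MyoD-/- arrays below every wild-type array, and on all 6 shared chips MyoD-/- was lower. It changed by -0.71 ± 0.11 (adjusted p = 3.79e-06).

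Of the desaturases, Scd1, which makes oleic from stearic acid, showed the deepest fall of all members. It had 7.95, 8.76 and 10.18 in wild type, 8.43, 8.49, 8.74 and 9.07 in MyoD+/- and 6.63, 7.60 and 8.41 in MyoD-/-. Of the 18 MyoD-/- arrays 12 lay below every wild-type array. The change was -1.47 ± 0.22 (adjusted p = 2.36e-06), to 36.2% of wild type, but its size varied between chips from -3.14 to -0.82.

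Fads1 and Fads2, which desaturate polyunsaturated fatty acids, fell less. Fads1 had 13.55, 13.75 and 13.96 in wild type, 13.47, 13.55, 13.66 and 13.84 in MyoD+/- and 12.97, 13.39 and 13.95 in MyoD-/-, with a change of -0.44 ± 0.08 (adjusted p = 3.95e-05). Fads2 had 8.07, 8.58 and 9.17, 7.84, 8.18, 8.20 and 8.53 and 7.14, 8.13 and 8.74 in the same order, with a change of -0.52 ± 0.12 (adjusted p = 0.00136). The wild-type and MyoD-/- ranges of both genes overlapped. Elovl6, which lengthens palmitic acid, had 11.15, 11.31 and 11.56 in wild type and 9.14, 10.85 and 11.39 in MyoD-/-. The MyoD+/- arrays of Elovl6 had 11.12, 11.21, 11.22 and 11.47. All but 1 of the MyoD-/- arrays lay below every wild-type array, with a change of -0.48 ± 0.10 (adjusted p = 0.00074).

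Of the enzymes that build the fatty acid chain, Acaca, acetyl-CoA carboxylase, changed by -0.30 ± 0.11 (adjusted p = 0.0346), a call that ended in 14 of 64 alternatives, among them the fits without chip 1 (-0.25, adjusted p = 0.164), without chip 2 (-0.25, adjusted p = 0.233), without chip 4 or chip 5, and without any 1 of wild-type replicates 1, 2, 3 and 6 or MyoD-/- replicate 3 (adjusted p = 0.0527 to 0.0805 for the single arrays). Acly, which makes cytosolic acetyl-CoA, was at -0.04 ± 0.09 (adjusted p = 0.813), Acss2, which makes it from acetate, at -0.24 ± 0.12 (adjusted p = 0.152), and the dim fatty acid synthase Fasn at -0.08 ± 0.14 (adjusted p = 0.731). The elongase Elovl5 (0.09 ± 0.07, adjusted p = 0.426) and the desaturase Scd2 (-0.66 ± 0.26, adjusted p = 0.06) did not pass either.

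**Figure D2:**
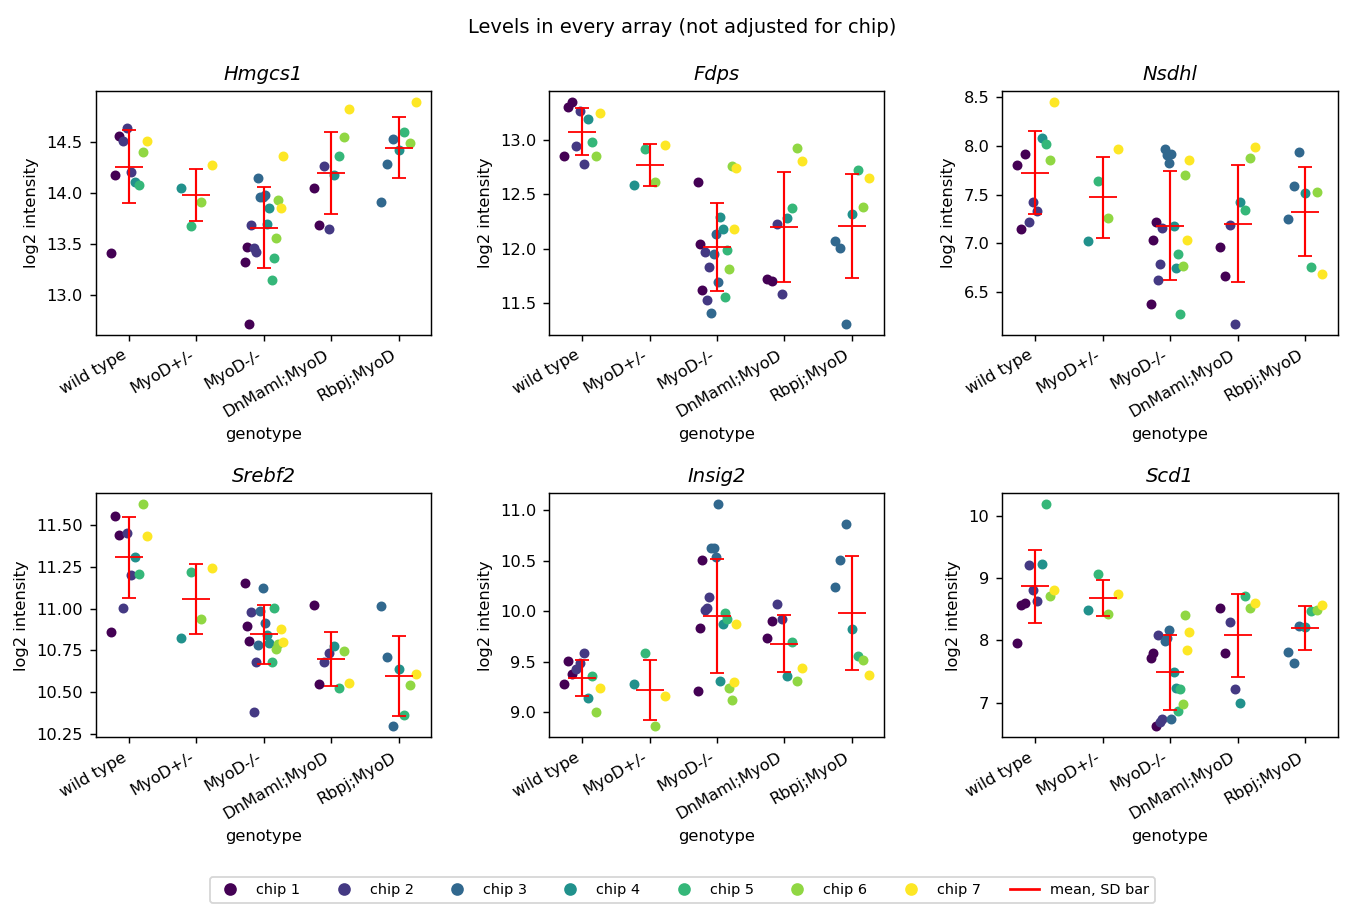
Log2 intensity (vertical axis) of 6 members in each of the 47 arrays by genotype, coloured by chip, with the mean and SD of each genotype in red. Fdps in MyoD-/- lies below every wild-type array, 5 of 7 arrays of Hmgcs1 in the Rbpj;MyoD mutant lie above every MyoD-/- array, and Srebf2 has its lowest median, 10.61, in the Rbpj;MyoD mutant.

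Of the 17 members called between MyoD-/- and wild type, 15 had the same sign on each of the 6 chips that hold both genotypes, the exceptions being Idi1 and Acaca. Within chips the median over members ran from -0.46 to -0.29. Scaling the arrays to a common median in place of quantile normalisation left 10 of the 17 calls, at 9 lower and 1 higher, with a member median of -0.37 and calls in 14.9% of all genes. Cyp51, Sqle, Hsd17b7, Srebf2, Acaca, Elovl6 and Fads2 were not called under that scaling, which also moved the split of all called genes from 967 higher and 1036 lower to 873 and 415. Markers of adipocytes, a cell type rich in these enzymes, were summed as normalised intensities over 3 measured of 9 listed genes and ran from 4316 to 9515 in wild type and from 2204 to 6387 in MyoD-/-. Fabp4, Plin1 and Lep of this list were detected on 0 arrays, Lpl fell by 0.72 on the log2 scale and Pparg rose by 0.97 ± 0.24. Muscle differentiation genes fell in 9 of 11 measured cases (Myog -1.22 ± 0.19) and rose in 1, by 1.60. Their sums ran from 28729 to 56727 in wild type (median 35929) and from 30303 to 47468 in MyoD-/- (median 41577). Of 9 measured muscle progenitor markers, Myod1 among them, 2 rose and 3 fell, with sums of 71084 to 85116 and 67166 to 98080, and 2 of 8 fibroblast markers rose. Of 3 measured Schwann cell markers 2 fell, with sums of 6215 to 10086 and 4091 to 10708. Proliferation genes fell in 3 of 8 (Ccne1 -0.86 ± 0.16), with sums of 35316 to 45669 and 27908 to 45746. The part of these markers in the fall of the lipid genes was not tested.

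The next comparison asks what a block of Notch transcription adds once MyoD is absent. The labels give the Pax3cre/+ allele to the double mutants alone. For either double mutant, effects of that allele and of the Notch defect therefore cannot be told apart against MyoD-/- or wild type. Against MyoD-/-, 2 members rose in the DnMaml;MyoD mutant and 0 fell, against 11.9% of all genes called (6.68% higher and 5.17% lower). The risers were Hmgcs1 at the entry of the pathway and the demethylase Cyp51. Without MyoD-/- replicate 16 the members called numbered 4, and without DnMaml;MyoD replicate 1, 3 or 6 there was 1. The median over members was 0.11, against -0.01 for all genes, and 7 of the 28 changes were below 0.

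Hmgcs1 had 13.65, 14.22 and 14.82 in the 8 DnMaml;MyoD arrays, compared with the 12.72, 13.69 and 14.36 given for MyoD-/-. The ranges overlapped, but on each of the 6 shared chips the double mutant was higher, by 0.40 to 1.10. Its change was 0.61 ± 0.13 (adjusted p = 0.000814), 1.52-fold. Scaling to a common median gave 0.58 (adjusted p = 0.0529), which ended the call.

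Cyp51 had 10.78, 11.05 and 11.50 in the DnMaml;MyoD mutant. Of these 8 arrays 7 lay above the MyoD-/- median of 10.81, and the ranges overlapped. It changed by 0.38 ± 0.11 (adjusted p = 0.0229). The call ended without any 1 of chips 2, 5, 6 and 7 (changes of 0.35, 0.35, 0.37 and 0.37, adjusted p = 0.081, 0.0681, 0.0646 and 0.0587), without DnMaml;MyoD replicate 1, 3 or 6, with the smallest change in the last set, 0.32, adjusted p = 0.0694, without replicate 3, and under common-median scaling. Joining chips 6 and 7 also ended it (0.37, adjusted p = 0.0575), and left Hmgcs1 as the 1 member called, against 8.81% of all genes.

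The other sterol genes gave no call over all chips. Fdps in the DnMaml;MyoD mutant had 11.58, 12.25 and 12.92, Nsdhl 6.17, 7.26 and 7.99 and Stard4 9.02, 9.49 and 10.66. Their changes from MyoD-/- were 0.12 ± 0.15 (adjusted p = 0.642), 0.25 ± 0.16 (adjusted p = 0.348) and 0.02 ± 0.12 (adjusted p = 0.937). Mvd had 7.81, 8.39 and 8.86, Idi1 5.04, 5.57 and 6.77 and Sqle 11.99, 12.41 and 13.07, all overlapping MyoD-/-. Srebf2 had 10.52, 10.71 and 11.02 and Insig2 9.31, 9.71 and 10.07, again within or close to the MyoD-/- range.

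Among fatty acid genes Scd1 had 6.995, 8.41 and 8.72 in the DnMaml;MyoD mutant, and its change of 0.64 ± 0.23 (adjusted p = 0.0654) did not pass. Elovl6 had 10.43, 11.02 and 11.67, Fads1 13.15, 13.33 and 13.76 and Fads2 7.46, 8.10 and 8.71. None of these 4 was called against MyoD-/- by limma, with Scd1 below an unadjusted p of 0.05 and the other 3 above it.

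The values for DnMaml were also read on the later chips by themselves. On chips 4 to 7 alone, 8 members rose and 1 fell against MyoD-/-, where 9.46% of all genes rose and 10.3% fell. The 8 were Hmgcs1, Pmvk, Sqle, Lss, Cyp51, Dhcr7, Stard4 and Elovl6, and the 1 that fell was Scap. Dhcr7 changed by 0.76 ± 0.19 (adjusted p = 0.00956) there, Lss by 0.64 ± 0.13 (adjusted p = 0.00398) and Sqle by 0.36 ± 0.13 (adjusted p = 0.0476). The median over members was 0.29 on chips 4 to 7 and -0.04 on chips 1 and 2. Chip 4 lay with the early chips, since the medians within chips 1, 2 and 4 were -0.05, 0.04 and 0.03. Within chips 5, 6 and 7 they were 0.36, 0.32 and 0.32, with 1 DnMaml;MyoD array on each. The difference between the chip sets itself was tested as an interaction in the 32 wild-type, MyoD-/- and DnMaml;MyoD arrays of these chips. It called 0 members by limma, against 0.0693% of all genes. At an unadjusted p under 0.05 there were 6 members (Stard4, Lss, Elovl6, Dhcr7, Idi1 and Nsdhl), against 12.1% of all genes. For Stard4 the change was -0.32 on chips 1 and 2 and 0.34 on chips 4 to 7, a difference of 0.67 ± 0.19 (adjusted p = 0.151).

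**Figure D3:**
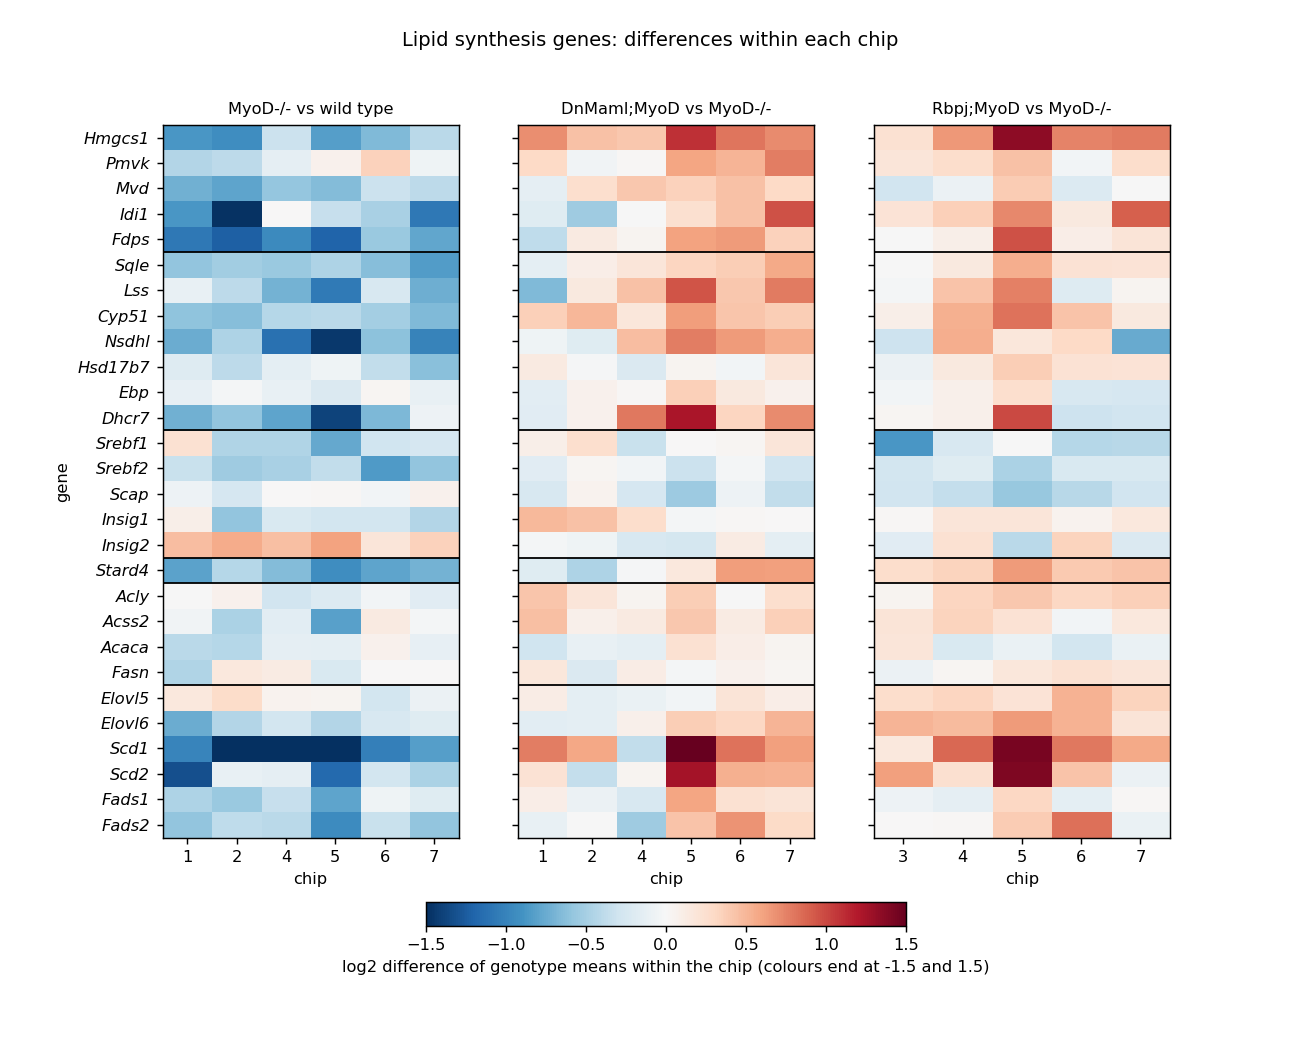
Log2 difference of genotype means within each chip (columns) for the 28 members (rows, with lines between roles) in 3 comparisons, blue lower and red higher in the first genotype. The fall in MyoD-/- appears on all 6 chips. The median member difference of the DnMaml;MyoD mutant from MyoD-/- is -0.05, 0.04 and 0.03 on chips 1, 2 and 4. On chips 5, 6 and 7 it is 0.36, 0.32 and 0.32. In this comparison Nsdhl and Stard4 are blue on chips 1 and 2, and Stard4 is above 0 on 3 of the 6 chips.

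Deletion of Rbpj without MyoD was compared with MyoD-/- in the same way. Of the 28 members 4 rose and 3 fell, 25% of the members against 24.5% of all genes (12.2% higher and 12.3% lower), a share near the background. The risers were again Hmgcs1 and Cyp51, with the elongases Elovl5 and Elovl6. The genes that fell were the regulators Srebf1, Srebf2 and Scap. The 7 kept their sign on all 5 chips that hold both genotypes. Both double mutants were compared with the same MyoD-/- arrays, so that their shared calls are not independent.

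Hmgcs1 in the 7 Rbpj;MyoD arrays had 13.91, 14.49 and 14.89, and 5 of the 7 lay above every MyoD-/- array. The change was 0.65 ± 0.13 (adjusted p = 0.000274), 1.57-fold, and was not called under common-median scaling at 0.50 (adjusted p = 0.073). Cyp51 had 10.99, 11.21 and 11.71, all above the MyoD-/- median, and changed by 0.35 ± 0.12 (adjusted p = 0.0293). This call ended without any 1 of chips 4, 5 and 6 (0.26, adjusted p = 0.161 without chip 5), without Rbpj;MyoD replicate 3, 4, 5 or 6 (0.27, adjusted p = 0.14 without replicate 5), under common-median scaling, and with chips 6 and 7 joined (0.36, adjusted p = 0.0543).

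Elovl6 had 10.13, 11.36 and 11.53 in the Rbpj;MyoD mutant. Its 3 arrays on chip 3 were low, at 10.13 to 10.59, and its 4 arrays on chips 4 to 7 were high, at 11.36 to 11.53. It changed by 0.47 ± 0.12 (adjusted p = 0.00243), and Elovl5, which lengthens polyunsaturated fatty acids, changed by 0.29 ± 0.08 (adjusted p = 0.00809). Both calls ended under common-median scaling (0.36, adjusted p = 0.147, and 0.15, adjusted p = 0.475, respectively). Scd1 had 7.64, 8.23 and 8.56, Fads1 13.35, 13.59 and 13.76 and Fads2 7.79, 8.25 and 8.56, and none of these 3 was called.

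Of the 5 regulators 3 fell. Srebf2 had 10.30, 10.61 and 11.02 in the Rbpj;MyoD mutant, the lowest median of the 5 genotypes for this probe. It changed by -0.28 ± 0.10 (adjusted p = 0.03) from MyoD-/-, a call that ended in 13 of 64 alternatives, among them the fits without any 1 of chips 3 to 7 (-0.26, adjusted p = 0.108 without chip 5) without MyoD-/- replicate 9 or Rbpj;MyoD replicate 3, 5 or 6, and with chips 6 and 7 joined (-0.29, adjusted p = 0.0587). Scap, which escorts SREBP to the Golgi, changed by -0.33 ± 0.10 (adjusted p = 0.00928), and by -0.30 (adjusted p = 0.0548) without chip 5. Srebf1 changed by -0.51 ± 0.14 (adjusted p = 0.00763). That call ended without chip 3 (-0.30, adjusted p = 0.272), the chip with the largest difference, at -0.87. Insig2 had 9.37, 9.82 and 10.86 and stayed uncalled at -0.08 ± 0.11 (adjusted p = 0.667).

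Of the remaining sterol genes Fdps had 11.31, 12.32 and 12.72, Mvd 7.85, 8.23 and 9.30 and Nsdhl 6.69, 7.51 and 7.94 in the Rbpj;MyoD mutant. All overlapped MyoD-/- widely, with changes of 0.19 ± 0.15, -0.09 ± 0.15 and -0.16 ± 0.17 that did not pass. Idi1 had 6.02, 6.54 and 7.88, Sqle 11.04, 12.45 and 12.70 and Stard4 8.92, 10.21 and 10.46. Stard4 was near the threshold at 0.32 ± 0.12 (adjusted p = 0.0519). On chips 4 to 7 alone 8 members rose and 2 fell, against 14.3% and 14.9% of all genes, and the 8 then included Idi1, Stard4, Acly and Scd1 (0.91 ± 0.31, adjusted p = 0.0308).

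Markers of muscle progenitors and of other cells moved in these comparisons too. Of 9 measured muscle progenitor markers 8 fell and 1 rose in the Rbpj;MyoD mutant against MyoD-/-, with a median change of -0.83 (Itga7 -1.54 ± 0.12, Vcam1 -0.59 ± 0.11, Des 0.49 ± 0.10). In the DnMaml;MyoD mutant 5 fell and 1 rose, with a median of -0.33 (Itga7 -0.94 ± 0.11, Des 0.56 ± 0.09). Their sums were 67166 to 98080 in MyoD-/-, 50858 to 77018 with DnMaml and 46150 to 63236 with Rbpj deletion. Both measured erythroid markers fell with Rbpj deletion, Alas2 at -2.03 ± 0.28 and Hba-a1 at -1.61 ± 0.22, with sums of 4780 to 21748 against 9439 to 49802, and 0 of 2 were called with DnMaml (22504 to 40342). Fibroblast genes rose in 7 of 8 cases in the Rbpj;MyoD mutant against MyoD-/- (Pdgfra 1.96 ± 0.31), with sums of 70690 to 119669 against 40122 to 91667, and in 1 of 8 in the DnMaml;MyoD mutant (59855 to 101300). Muscle differentiation genes rose in 9 of 11 and fell in 1 with DnMaml (Tnnc1 2.32 ± 0.16, sums 43811 to 56978), and rose in 2 and fell in 5 with Rbpj deletion (sums 28642 to 37371). Schwann cells make much cholesterol for myelin. Of their 10 listed markers 3 were measured, 2 rose with DnMaml (Mbp 2.23 ± 0.28) and 1 with Rbpj deletion (Ngfr 1.54 ± 0.18), while S100b, Foxd3 and Cdh19 were detected on 0 arrays. Their sums were 4091 to 10708 in MyoD-/-, 5268 to 12569 with DnMaml and 6326 to 10519 with Rbpj deletion. Of 3 measured adipocyte markers Lpl rose in both, by 0.59 ± 0.13 with DnMaml and 1.12 ± 0.14 with Rbpj deletion. The other 2 were not called in either. Of the 3 changes 1 lay below 0 with DnMaml and 2 with Rbpj deletion. Adipocyte sums were 4103 to 9043 and 4293 to 7916 in the same order. The part of these markers in the lipid gene changes was not tested.

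The direct comparison of the double mutants called 0 of 28 members by limma, against 6.79% of all genes (3.59% lower and 3.2% higher), and 3 members were below an unadjusted p of 0.05, against 18.4% of all genes. They were Srebf1 (-0.54 ± 0.18, adjusted p = 0.0538), Elovl5 (0.27 ± 0.10, adjusted p = 0.102) and Elovl6 (0.38 ± 0.14, adjusted p = 0.11), each as Rbpj;MyoD minus DnMaml;MyoD. For Hmgcs1 the difference was 0.05 ± 0.16, with a 95% interval of -0.29 to 0.38, and for Cyp51 it was -0.03 ± 0.15, with an interval of -0.33 to 0.27. Differences within these intervals remain compatible with these arrays. The intervals are not adjusted for the number of genes and are not a limit of detection. Leaving out any 1 of 10 arrays (wild-type replicates 1, 3 and 4, MyoD-/- replicate 2, DnMaml;MyoD replicates 1, 5, 6 and 8, Rbpj;MyoD replicates 4 and 5) brought 1 member past the threshold.

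Both double mutants were also set against wild type. These comparisons use the same wild-type arrays as that of MyoD-/-, and values are therefore given side by side. In the DnMaml;MyoD mutant 14 members fell and 1 rose, against 24.2% of all genes called (12.4% lower and 11.8% higher), with a member median of -0.31, and 7 of these 15 had the same sign on all 6 shared chips. In the Rbpj;MyoD mutant 10 fell and 2 rose, against 25.3% (12.6% and 12.7%), with a median of -0.35, and all 12 had the same sign on the 4 shared chips. Srebf2 changed from wild type by -0.61 ± 0.10 (adjusted p = 8.64e-06) with DnMaml and by -0.78 ± 0.12 (adjusted p = 1.57e-06) with Rbpj deletion. Fdps changed by -0.90 ± 0.16 (adjusted p = 2.41e-05) and -0.83 ± 0.18 (adjusted p = 0.000553), and its Rbpj;MyoD arrays did not overlap wild type. With DnMaml, Fdps was at -1.27 on chips 1 and 2. On chips 4 to 7 alone it was at -0.47 ± 0.20 and not called (adjusted p = 0.102). Insig2 rose in both double mutants, by 0.37 ± 0.11 (adjusted p = 0.0134) and 0.40 ± 0.13 (adjusted p = 0.0245). Its second probe was not called with DnMaml, at 0.76 ± 0.36 (adjusted p over all probes = 0.128), and the mean of detected probes ended that call. With Rbpj deletion the second probe was called, at 1.57 ± 0.42 (adjusted p = 0.00452).

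Hmgcs1 and Cyp51 were not called against wild type in either double mutant. Hmgcs1 was at -0.10 ± 0.14 (95% interval -0.38 to 0.18) with DnMaml and at -0.05 ± 0.16 (-0.38 to 0.27) with Rbpj deletion, compared with -0.71 ± 0.12 in MyoD-/-. On chips 4 to 7 alone Hmgcs1 was at 0.20 ± 0.13 (adjusted p = 0.294) and 0.33 ± 0.13 (adjusted p = 0.0709), and within the 4 chips that wild type shares with the Rbpj;MyoD mutant its difference was above 0 on each, at 0.09 to 0.52. For Cyp51 the values were -0.16 ± 0.12 and -0.19 ± 0.14, compared with -0.54 ± 0.11. Elovl6 was at -0.39 ± 0.12 (adjusted p = 0.0154) with DnMaml and at -0.0037 ± 0.14 (adjusted p = 0.991) with Rbpj deletion, where the differences within the 4 shared chips were 0.02 to 0.28.

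**Figure D4:**
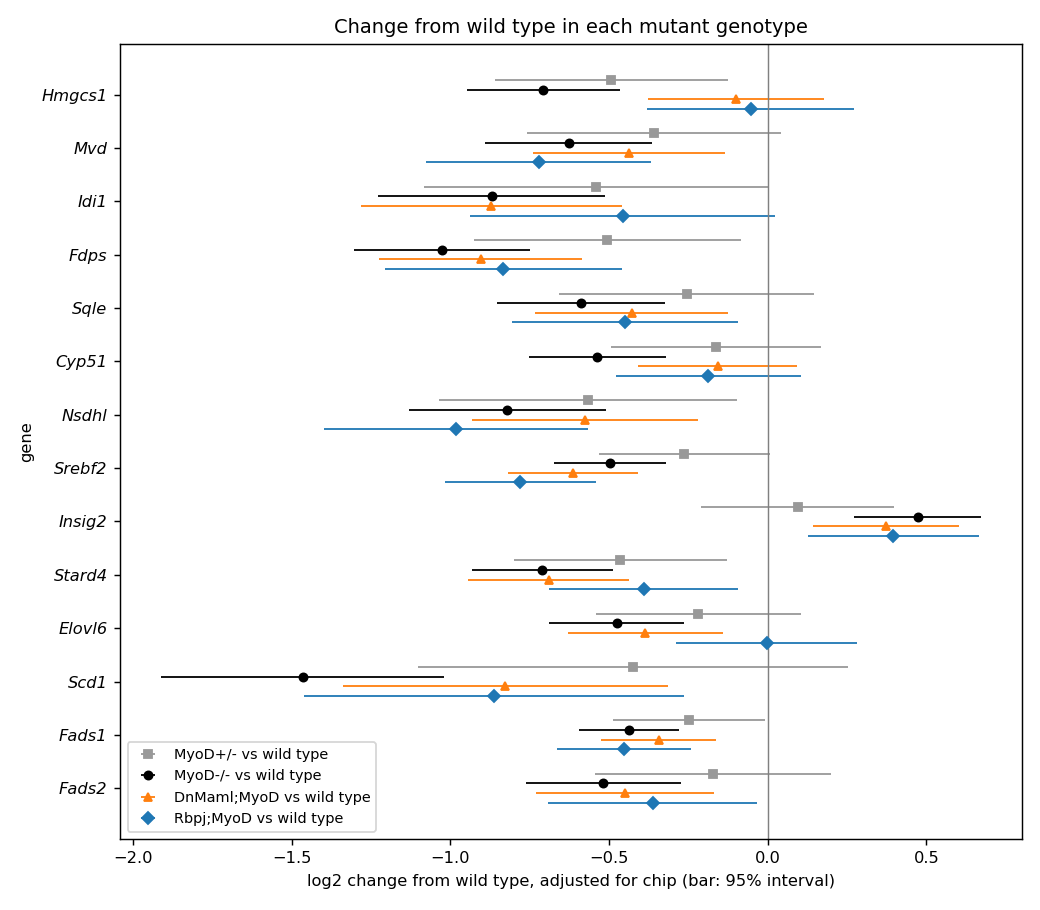
Log2 change from wild type with its 95% interval (horizontal axis) of the 14 members with the lowest F test p (rows) in MyoD+/-, MyoD-/- and both double mutants. The points of Hmgcs1 lie near 0 in both double mutants and at -0.71 in MyoD-/-, whereas those of Srebf2 lie at -0.61 and -0.78 in the double mutants.

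Of the other sterol steps, Mvd was at -0.44 ± 0.15 (adjusted p = 0.0278) and -0.72 ± 0.17 (adjusted p = 0.00149), and Nsdhl at -0.57 ± 0.18 (adjusted p = 0.0133) and -0.98 ± 0.21 (adjusted p = 0.000276), with DnMaml first. Idi1 was at -0.87 ± 0.20 (adjusted p = 0.00113) and -0.46 ± 0.24 (adjusted p = 0.168), Sqle at -0.43 ± 0.15 (adjusted p = 0.0316) and -0.45 ± 0.18 (adjusted p = 0.0551). The second probe of Sqle was not called, at -0.31 and -0.38 (adjusted p over all probes = 0.295 and 0.285). The other Nsdhl probes were at -0.60, -0.48 and -0.44 with DnMaml (adjusted p over all probes = 0.053, 0.0817 and 0.021). All were called with Rbpj deletion. Dhcr7 was called with Rbpj deletion only, at -0.71 ± 0.23 (adjusted p = 0.0188) against -0.36 ± 0.19 (adjusted p = 0.191), and the difference between the double mutants was -0.35 ± 0.23 (adjusted p = 0.462). Hsd17b7 was called with DnMaml at -0.27 ± 0.10 (adjusted p = 0.0367), a call that ended in 17 of 64 alternatives. With chips 6 and 7 joined Hsd17b7 with DnMaml (-0.25, adjusted p = 0.0846), Dhcr7 with Rbpj deletion (-0.69, adjusted p = 0.0519) and Stard4 with Rbpj deletion (-0.38, adjusted p = 0.0952) were not called. Stard4 was at -0.69 ± 0.13 (adjusted p = 4.47e-05) and -0.39 ± 0.15 (adjusted p = 0.0459), and the second call ended in 34 of 64 alternatives, so that its place past the threshold depended on single arrays of every genotype but MyoD+/-.

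In the fatty acid genes Scd1 was at -0.83 ± 0.25 (adjusted p = 0.0134) with DnMaml and -0.86 ± 0.30 (adjusted p = 0.0276) with Rbpj deletion, and Fads1 at -0.34 ± 0.09 (adjusted p = 0.00336) and -0.45 ± 0.10 (adjusted p = 0.000863). Fads2 was at -0.45 ± 0.14 (adjusted p = 0.0144) and -0.36 ± 0.16 (adjusted p = 0.1), and Acaca at -0.35 ± 0.12 (adjusted p = 0.028) with DnMaml. Elovl5 rose with Rbpj deletion by 0.38 ± 0.10 (adjusted p = 0.00351). Srebf1 (-0.73 ± 0.17, adjusted p = 0.00133) and Scap (-0.41 ± 0.12, adjusted p = 0.00648) fell with Rbpj deletion, and Scap was at -0.28 ± 0.10 (adjusted p = 0.0313) with DnMaml.

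The values of the DnMaml;MyoD mutant against wild type were uneven over chips. The member median was -0.50 on chips 1 and 2 and -0.08 on chips 4 to 7, where 5 members fell and 1 rose, against 10.2% and 10.9% of all genes. Of the 15 calls over all chips 4 were kept on chips 4 to 7 alone. Within chips 1, 2 and 4 the median was -0.34, -0.44 and -0.25. Within chips 5, 6 and 7 it was -0.15, 0.04 and -0.07. The interaction of genotype with early or late chips called 4 members (Elovl6, Idi1, Acaca and Pmvk), against 8.88% of all genes. Elovl6 was at -0.74 on chips 1 and 2 and at 0.03 on chips 4 to 7, a difference of 0.77 ± 0.17 (adjusted p = 0.00869), and Idi1 at -1.54 and -0.06, a difference of 1.47 ± 0.34 (adjusted p = 0.0117). The same test of MyoD-/- against wild type called 0 members by limma, against 0.139% of all genes, with 3 at an unadjusted p under 0.05, against 12.7% of all genes, and the member median was -0.46 on both chip sets. Leaving out chip 2 reduced the calls of DnMaml;MyoD against wild type from 15 to 4, and leaving out chip 1 or chip 4 reduced them to 9. Of all genes 15.8% were then called without chip 2, 19.2% without chip 1 and 20.7% without chip 4. Without DnMaml;MyoD replicate 4 they numbered 9. Leaving out chip 2 ended the calls of Idi1, Mvd, Sqle, Nsdhl, Hsd17b7, Insig2, Scap, Acaca, Elovl6, Fads1 and Scd1 (for Idi1 -0.44, adjusted p = 0.156, for Insig2 0.33, adjusted p = 0.13, for Scd1 -0.71, adjusted p = 0.0972). Leaving out a single array ended calls of Mvd (wild-type replicates 2 and 3, DnMaml;MyoD replicates 1, 2 and 4), Sqle (wild-type 2, 4 and 5, DnMaml;MyoD 1, 2 and 4), Nsdhl and Fads2 (DnMaml;MyoD 4), Elovl6 (DnMaml;MyoD 3), Acaca (wild-type 6, DnMaml;MyoD 1, 3 and 4), Scap (wild-type 1, 5 and 6, DnMaml;MyoD 2, 6 and 8) and Hsd17b7 (wild-type 4, 5, 9 and 10, DnMaml;MyoD 4, 5 and 7), with adjusted p from 0.0506 to 0.0982. In the Rbpj;MyoD mutant against wild type, single arrays ended the calls of Insig2 (Rbpj;MyoD 4 and 6), Dhcr7 (Rbpj;MyoD 6), Scd1 (wild-type 7 and 8) and Stard4 (wild-type 2, 3, 5, 7, 8 and 9, MyoD-/- 1, 8, 9, 10 and 11, DnMaml;MyoD 1 to 5, Rbpj;MyoD 3, 4, 6 and 7), with adjusted p from 0.05 to 0.0919.

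Loss of a single MyoD copy gave no call. In MyoD+/- against wild type limma called 0 of 28 members and 0% of all genes. At an unadjusted p under 0.05 there were 6 members, against 4.76% of all genes, and all 6 were lower, namely Stard4, Hmgcs1, Nsdhl, Fdps, Fads1 and Idi1. Of the 28 changes 25 were below 0, and all 12 sterol steps were. The member median was -0.24, against -0.01 for all genes. Hmgcs1 was at -0.49 ± 0.18 (adjusted p = 0.93), with a 95% interval of -0.86 to -0.12, and Stard4 at -0.46 ± 0.17 (adjusted p = 0.93), with an interval of -0.80 to -0.13. With 4 MyoD+/- arrays, 1 on each of chips 4 to 7, a change of the size seen in MyoD-/- lies within the interval of Hmgcs1. On chips 4 to 7 alone, Hmgcs1 was at -0.29 ± 0.13 (adjusted p = 1) and the member median was -0.16.

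Over all 5 genotypes the moderated F test called 18 of 28 members, against 38.2% of all genes. The 8 members not called over all chips in any of the 7 comparisons were Pmvk, Lss, Ebp, Insig1, Acly, Acss2, Fasn and Scd2, with changes from -0.66 to 0.51. On chips 4 to 7 alone Pmvk, Lss, Insig1 and Acly were each called in at least 1 of the 7. Scd2, a further desaturase, spread from 5.53 to 9.64 over all arrays, whereas Ebp lay between 10.36 and 10.63 in wild type. On chips 4 to 7 alone 15 members fell and 1 rose in MyoD-/- against wild type, where 7.39% of all genes fell and 5.76% rose. Lss, at -0.48 ± 0.20 in MyoD-/- against wild type over all chips, was called at -0.69 ± 0.13 (adjusted p = 0.00146) on chips 4 to 7 alone, as were Srebf1 at -0.44 ± 0.11 (adjusted p = 0.00801) and Insig1 at -0.30 ± 0.08 (adjusted p = 0.0194). Of the 17 calls over all chips 13 were kept there. Elovl6 (-0.28, adjusted p = 0.0736), Fads1 (-0.35, adjusted p = 0.0733), Fads2 (-0.57, adjusted p = 0.0574) and Acaca (-0.08, adjusted p = 0.583) were not called.

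Correlations between members across arrays are given as a description. After genotype and chip were removed, the median Pearson correlation over the 47 arrays was 0.20 between pairs of the 12 sterol steps (Spearman 0.24), 0.09 over all 28 members and -0.00094 over all genes. With Hmgcs1 the members most alike were Mvd (Pearson 0.60, Spearman 0.66), Cyp51 (0.59 and 0.43), Scd1 (0.54 and 0.54) and Fdps (0.52 and 0.56). Srebf2 was at 0.05 and -0.01. These values describe arrays that share chips and processing.

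Other genes of lipid metabolism were listed by pathway, and their calls stand against 23.1% of all genes called in MyoD-/- against wild type, and 11.9% and 24.5% in the DnMaml;MyoD and Rbpj;MyoD mutants against MyoD-/-. Of 3 further cholesterol synthesis genes measured, Msmo1, the sterol methyl oxidase, fell in MyoD-/- against wild type by 0.95 on the log2 scale (adjusted p = 0.000479) and rose in the Rbpj;MyoD mutant against MyoD-/- by 0.83 ± 0.23 (adjusted p = 0.00545). Of 5 genes of sterol uptake and trafficking Tmem97 fell without MyoD (-0.36 ± 0.11, adjusted p = 0.0178). The lipoprotein receptor Vldlr rose in both double mutants against MyoD-/- (0.62 ± 0.12, adjusted p = 0.000429 with DnMaml, 0.97 ± 0.13, adjusted p = 2.17e-07 with Rbpj deletion), and Lrp1 rose with Rbpj deletion (0.71 ± 0.17, adjusted p = 0.0016). Of 3 genes of sterol efflux and oxysterols, the hydroxylase Ch25h rose without MyoD (0.89 ± 0.28, adjusted p = 0.0158) and Apoe rose with DnMaml (0.60 ± 0.18, adjusted p = 0.0221).

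Against the same 11.2% of all genes higher and 12% lower without MyoD, 2 of 5 genes of SREBP cleavage and turnover rose, Ubxn8 (0.27 ± 0.10, adjusted p = 0.0383) and Erlin1 (0.21 ± 0.08, adjusted p = 0.0473), and Erlin2 rose with Rbpj deletion (0.27 ± 0.09, adjusted p = 0.0182). Of 15 further fatty acid synthesis and activation genes 1 rose and 2 fell without MyoD, among them the dehydratase Hacd1 (0.38 ± 0.09, adjusted p = 0.00142) and the acyl-CoA synthetase Acsl5 (-0.31 ± 0.08, adjusted p = 0.00403). Acsl5 rose in the double mutants (0.32 ± 0.09, adjusted p = 0.00904 with DnMaml, 0.54 ± 0.09, adjusted p = 1.33e-05 with Rbpj deletion), and Hacd1 fell with Rbpj deletion (-0.36 ± 0.10, adjusted p = 0.00647). Of 12 glycerolipid genes 2 rose and 1 fell without MyoD, with the acyltransferase Gpat3 at 0.99 ± 0.24 (adjusted p = 0.00249) and Pcyt2, an enzyme of phosphatidylethanolamine synthesis, at -0.49 ± 0.11 (adjusted p = 0.00121). With Rbpj deletion 3 of the 12 fell and 0 rose, Gpat3 among those that fell (-0.86 ± 0.27, adjusted p = 0.0178). With DnMaml 1 fell and 1 rose, the latter being Dgat2, a triglyceride enzyme (0.54 ± 0.13, adjusted p = 0.00408). Of 14 genes of fatty acid uptake and oxidation 1 rose and 1 fell without MyoD, namely Acadvl of mitochondrial oxidation (0.19 ± 0.07, adjusted p = 0.0445) and the fatty acid binding protein Fabp3 (-0.38 ± 0.13, adjusted p = 0.0292). Fabp3 rose with DnMaml (0.82 ± 0.14, adjusted p = 3.42e-05), as did Fabp5 (0.35 ± 0.12, adjusted p = 0.0446). With Rbpj deletion the carnitine carrier Slc25a20 rose (0.35 ± 0.13, adjusted p = 0.0383), and the coactivator Ppargc1a (-0.71 ± 0.19, adjusted p = 0.00423) and the lipase Pnpla2 (-0.88 ± 0.13, adjusted p = 1.66e-06) fell. Between the double mutants, where 6.79% of all genes were called, Hacd1 (-0.43 ± 0.12, adjusted p = 0.0229), Fabp3 (-0.77 ± 0.18, adjusted p = 0.00404) and Pnpla2 (-0.69 ± 0.16, adjusted p = 0.00394) were lower with Rbpj deletion.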

How the data were processed

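RNA of sorted cells from 47 samples was measured on Illumina mouse bead arrays. The deposited table gives, per the file headers, the intensity and the detection p-value of each probe on each array, not normalised between arrays, and GenomeStudio 2010.1 is named in the submitters' processing notes. A second table of values processed by the authors holds linear intensities with array medians nearly equal and some values below 0, as judged from the values. How they were made was not stated in the notes. They served as an alternative after a floor of 16. Intensities were background-corrected against the negative controls implied by the detection p-value, offset by 16, quantile-normalised and brought to the log2 scale with the neqc function (limma 3.58.1, R 4.3.3). The log2 values were thus computed here from the deposited intensities.

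Of 25697 probes 23978 had 1 gene symbol and 1719 had none in the platform annotation, and 12482 with a detection p under 0.01 on at least 4 arrays were kept. The brightest kept probe stood for a gene, which gave 8658 genes. Apart from choosing the brightest probe, calling probes dim and summing markers, levels of different probes were not compared. A linear model with 5 genotypes and 7 chips as fixed terms (36 residual degrees of freedom) was fitted to all genes with limma, with moderated two-sided tests of 7 comparisons, an F test over the genotypes, and Benjamini-Hochberg adjustment over all genes at 0.05. Arrays of different chips were checked for shared samples by the correlation of their deviations from genotype and chip. On chips 6 and 7 the 6 pairs of like position and genotype had correlations of -0.11 to 0.64, 4 of them from 0.45 upwards, and 7 of 12 arrays were closest to their partner. The 2 pairs with the lowest correlations differed in a Y-linked transcript. Some of the others may hold the same sample, though each of the 47 arrays was kept as its own replicate. Of all pairs of 1 genotype the most alike were MyoD-/- replicates 8 and 9, both on chip 3. The SD of their difference was 0.17 and the correlation of their deviations 0.52. The next pair, wild-type replicates 9 and 10 of chips 6 and 7, had an SD of 0.21. Whether the 2 arrays of chip 3 share a sample was not tested. Replicate numbers were checked as pairs and did not pair the samples.

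On simulated data for MyoD-/- against wild type over 8658 genes, the fit recovered 72% of 100 genes changed by 0.5 on the log2 scale and 98% of 100 genes changed by 1, and called 5 unchanged genes. Only these genes were changed there, with independent normal noise on normalised values. In the data 23.1% of all genes were called and some arrays may share a sample, so these rates need not hold for the data. The number of arrays and the signal over background limit the precision. The alternatives were common-median scaling, no background correction, the authors' processed values, no detection filter, the mean of a gene's probes, no chip term, chip as a random block, chips 4 to 7 only, each chip or array left out, a replicate block, and, chosen after seeing the data, chips 6 and 7 joined and the test of early against late chips.

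The members, gene lists and markers were chosen with earlier results of these data known. Members called in any comparison are named with values, the 14 with the lowest F test p in every genotype, and up to 4 called genes of each other list per comparison. Promoter sequences are from RefSeq on GRCm38.p6, matched by symbol for 25 of the members, and counts of motifs cover both strands.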

Additional observations from a re-analysis of the deposited data

Results flagged for a closer look

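Of 112 tests of a member's level in a genotype of 4 to 10 arrays, 10 showed an array far from the others, by the gap to its nearest neighbour relative to the range (Dixon's test at 95%). Chance gives such a gap in about 1 in 20 groups. Hmgcs1 was low in wild-type replicate 1, at a log2 level of 13.41 against 14.08 for the next array, and Srebf1 was low in the same array, at 6.28 against 7.46. In Rbpj;MyoD replicate 3 Mvd was high, at 9.30 against 8.41, while Lss (5.93 against 7.42), Dhcr7 (5.37 against 6.69) and Acaca (10.92 against 11.56) were low. Ebp was low in DnMaml;MyoD replicate 2, at 9.96 against 10.38. In MyoD+/- Cyp51 was high in replicate 4, at 11.52 against 10.96, Srebf1 was high in replicate 3, at 7.50 against 7.26, and Acss2 was low in replicate 3, at 8.40 against 8.80. The cause of these gaps was not tested.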

How the results depend on the processing

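Counts of members called are given here with alternatives that moved them by over 1.5 times. Common-median scaling gave 10 in place of 17 for MyoD-/- against wild type, 0 in place of 2 for DnMaml;MyoD and 2 in place of 7 for Rbpj;MyoD against MyoD-/-, 6 in place of 15 and 7 in place of 12 for these mutants against wild type, and 10 in place of 18 for the F test. In the same order, 14.9%, 5.93%, 17.6%, 14.5%, 16% and 26.3% of all genes were called under that scaling. In the main fit these shares were 23.1%, 11.9%, 24.5%, 24.2%, 25.3% and 38.2%. Without a chip term the counts were 1 for DnMaml;MyoD and 4 for Rbpj;MyoD against MyoD-/-, 6 for DnMaml;MyoD against wild type, and 2 in place of 0 between the double mutants. The shares of all genes called were then 6.8%, 19.2%, 14.6% and 5.54%. Chips 4 to 7 alone gave 9 for DnMaml;MyoD against MyoD-/-, 6 for it against wild type, and 1 between the double mutants, where chip as a random block also gave 1. Of all genes 19.8%, 21.1% and 9.56% were called on chips 4 to 7, and 6.75% with the random block. DnMaml;MyoD against MyoD-/- gave 1 without chip 5, 6 or 7 (6.44%, 8.32% and 8.74% of all genes), and 1 with chips 6 and 7 joined (8.81%). DnMaml;MyoD against wild type gave 9 without chip 1 (19.2% of all genes), 4 without chip 2 (15.8%) and 9 without chip 4 (20.7%). Rbpj;MyoD against MyoD-/- gave 4 without chip 5 (16.7% of all genes). The double mutants differed in 2 members without chip 1 (6.87%) and in 1 without chip 4 (4.97%). Leaving out single arrays gave 16 to 18 for MyoD-/- against wild type, 1 to 4 for DnMaml;MyoD and 5 to 9 for Rbpj;MyoD against MyoD-/-, 9 to 15 and 10 to 14 for these against wild type, 0 to 1 between the double mutants, 0 to 0 for MyoD+/- and 17 to 20 for the F test. The replicate number as a block gave 0 for both double mutants against MyoD-/-, 9 and 1 for DnMaml;MyoD and Rbpj;MyoD against wild type, and 11 for the F test. Calls over all genes fell as well. With DnMaml;MyoD first, their shares were 2.49% and 0.878% against MyoD-/-, 14.2% and 5.29% against wild type, and 21.1% for the F test. The numbers did not pair the samples, since over 63 pairs of same-numbered arrays the median correlation was -0.03 and 7 exceeded 0.1. Elovl6 in DnMaml;MyoD against wild type turned to 0.030 on chips 4 to 7, and Srebf1 in Rbpj;MyoD against MyoD-/- to 0.10 with the replicate block. The cause of these shifts was not tested. Taken over every called change and every alternative, direction and call held in 3140 combinations, the call was lost with the direction kept in 250, and the direction turned in 2. Of the 64 alternatives 47 left out a single array, so this tally is weighted towards fits that differ from the main one by 1 array. Dim probes such as those of Idi1 and Fasn lie near background, where small changes cannot be seen.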
